A study of Homo sapiens with 20 samples.

Results

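Integrin subunits and laminin chains were followed through the differentiation of neural progenitor cells (NPCs). These had been made from H1, a human embryonic stem cell line in wide use. The set held 32 genes: 13 integrin alpha subunits, 8 integrin beta subunits, 5 laminin alpha chains, 4 laminin beta chains and 2 laminin gamma chains. Each was found by its symbol among 20237 coding records, of 38369 records in all, and where a symbol could have had several records the one with the highest mean was to be kept, although no member matched more than 1.

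Integrins are cell surface receptors made of 1 alpha and 1 beta subunit that bind proteins of the extracellular matrix outside the cell and, through linker proteins, the actin cytoskeleton inside it. Laminins are secreted trimers of an alpha, a beta and a gamma chain, and they are the main adhesive proteins of basement membranes. In the developing brain radial glia are attached through integrins to the laminin-rich membrane at the brain surface, and cultured neural progenitors are commonly grown on laminin or on Matrigel, a basement membrane extract that is rich in it.

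The cells proliferated with FGF on Matrigel before day 0. FGF was then withdrawn and BDNF added. Day 0 was the undifferentiated group, and the other 6 groups were taken 1, 2, 4, 5, 11 and 18 days after the switch of medium. There were 20 samples, 3 cultures for each day but day 5, which kept 2 after the submitters removed 1 outlier. Cells meant for day 5 and later were moved at day 4 to wells coated with poly-D-lysine and laminin. Time, replating and surface therefore cannot be told apart in any comparison of days 0 to 4 with days 5 to 18. Both day 5 against day 4 and day 18 against day 0 are such comparisons. All cultures came from 1 cell line, and the labels do not tie a culture to a separate preparation.

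Expression was given as FPKM, a fragment number set relative to transcript length and sequencing depth, and the authors' estimate for a day pooled its cultures into 1 value per record. No spread between cultures could be computed, the depth behind each value is unknown, and no difference given here was tested. Levels are FPKM, which is per length and so can be set side by side between genes. Differences are in log2(FPKM + 1), and a record was counted as lower or higher when that difference was at least 1, which is 2-fold on that scale and understates the change of low genes.

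Most of the members that were expressed had their highest level in undifferentiated cells and were lower at the end of the course. Of the 19 members with a mean of at least 1 FPKM over the 7 days, 13 were highest at day 0 and 15 were lowest at day 18, and 18 were lower at day 18 than at day 0. The exception to the last was ITGB8. The 3 largest differences belonged to LAMC1 (-4.00), ITGA5 (-3.54) and LAMB1 (-3.50).

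Counted against all coding records, 13 of 32 members were at least 2-fold lower at day 18 than at day 0, beside 15.1% of coding records. None was 2-fold higher, beside 4.12%. The 13 were ITGA1 (in a record shared with PELO), ITGA3, ITGA4, ITGA5, ITGA6, ITGA9, ITGAV, ITGB1, ITGB5, LAMA1, LAMB1, LAMC1 and LAMC3. The median difference over the 32 members was -0.54, against -0.04 over all coding records. Because the pseudocount damps the differences of low records, the count was repeated over records with a mean of at least 1 FPKM: 12 of 19 members were lower, beside 25.3% of 11793 records, and none higher, beside 5.95%.

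The scale of the day 18 values bears on each of these counts. FPKM summed over coding records went from 358744 at day 0 to 216151 at day 18, and the median difference over the 11793 records was -0.53. When that median was subtracted, 10 of 19 members were lower, beside 10.0% of records, and none higher, beside 12.0%. ITGA6 and ITGB5 were the pair no longer counted. Relative to the median, 15 of the 19 were below and 4 above, namely ITGB8 (0.90), LAMA5 (0.39), LAMA2 (0.19) and LAMB2 (0.12). For the last 3 of these the direction therefore depends on the scaling. With the days rescaled to the day 0 total of coding records, 13 of the 19 were still highest at day 0 and 15 lower at day 18 than at day 0, but only 9 were lowest at day 18.

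**Figure D1:**
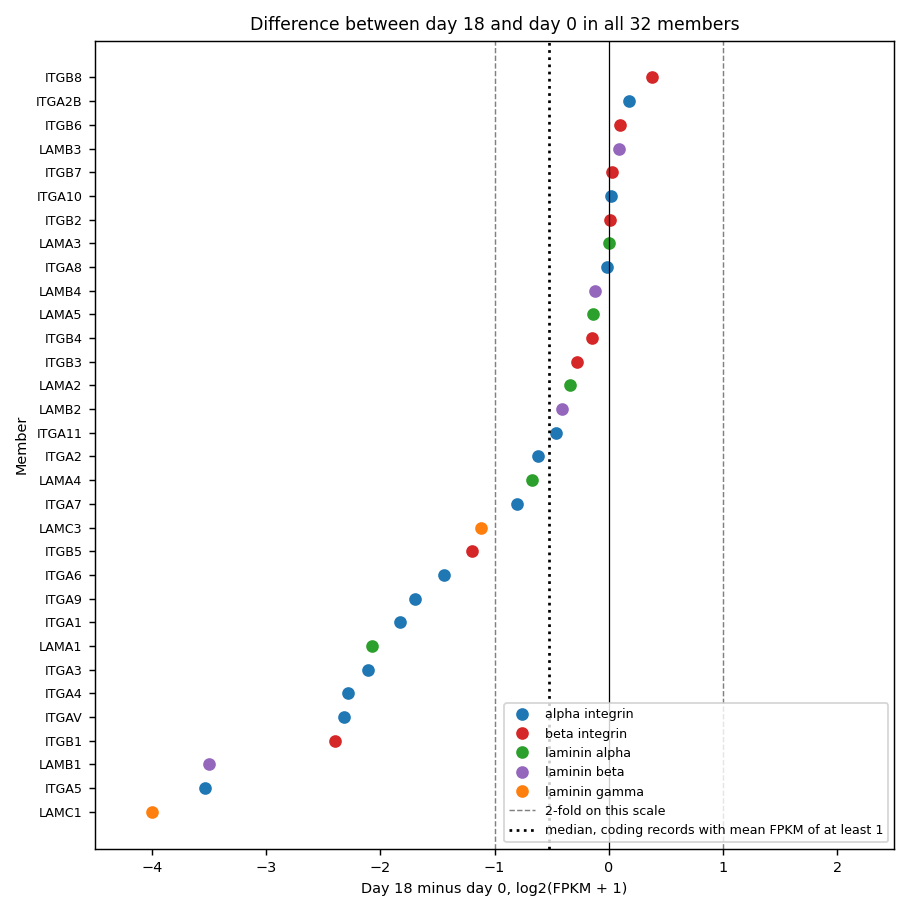
The difference between day 18 and day 0 in log2(FPKM + 1) is plotted for each of the 32 members, coloured by class, with dashed lines at 2-fold and a dotted line at the median of coding records with a mean of at least 1 FPKM (-0.53). LAMC1, ITGA5 and LAMB1 lie farthest to the left, and ITGB8 at 0.37 lies farthest to the right.

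The cultures were bulk samples, so fewer cells of a type and less RNA per cell cannot be told apart. Neural progenitor markers were present on every day, with VIM at 2948 FPKM on day 0 and 1493 on day 18, NES at 513 and 180 and SOX2 at 126 and 66.1. Of the 6 on the list, 1 was at least 2-fold lower (NES) and 1 at least 2-fold higher (PAX6, 4.31 to 10.4 FPKM). The shares over all coding records were 15.1% lower and 4.12% higher. With the median of coding records subtracted NES stood at -0.98, short of 2-fold, and PAX6 at 1.63. Of 7 neuron markers 5 were at least 2-fold higher at day 18, beside the same 4.12%, and STMN2 went from 32.3 to 727 FPKM. The highest on that list was the record shared by TUBB3, MC1R and TUBB2C, at 382 and 502 FPKM. Markers of mesenchymal cells were also measured at day 0, and 5 of 9 were at least 2-fold lower at day 18, beside the same 15.1%. With the median of coding records subtracted LUM (-0.63) and PDGFRB (-0.59) fell short of 2-fold, while TAGLN, COL3A1 and COL1A2 did not. The summed level of the mesenchymal markers went from 650.1 FPKM at day 0 to 57.8 at day 18, led by TAGLN (367 to 19.4) and COL3A1 (238 to 30.5). COL1A1 was listed at 0 on every day. Endothelial markers summed to 6.62 FPKM at day 0 and 0.340 at day 18 over the 5 of 6 with a record. Microglia and blood markers summed to at most 3.41, epithelial markers to at most 0.857, and astrocyte and oligodendrocyte markers to at most 18.0. Of the 3.41, at day 0, 2.99 came from a record shared by CSF1R and PDGFRB. The same record counts as PDGFRB among the 5 lower mesenchymal markers. Of 4 pluripotency genes DPPA4 was highest and went from 9.72 to 2.25 FPKM, POU5F1 and NANOG did not pass 0.108 FPKM on any day, and TDGF1 was listed at 0. The mesenchymal and neuron markers moved over the same days as the members, and their part in the members' differences was not tested.

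ITGB1, the common beta subunit that pairs with most alpha subunits, was the member with the highest mean. It lies at chr10:33189248-33247293 on the minus strand (hg19). On the 7 days in order its level was 213, 105, 120, 104, 112, 63.0 and 39.5 FPKM. There were thus a pair of lower steps, from day 0 to day 1 and after day 5, with little change between them.

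ITGB8, whose product pairs with the alpha V subunit and is known for activating latent TGF-beta, followed a different course. It lies at chr7:20370325-20455378 on the plus strand. Its levels were 34.9, 44.7, 56.0, 68.6, 58.5, 58.8 and 45.6 FPKM, so it was highest at day 4 and lowest at day 0. With the days rescaled to the day 0 coding total it was still lowest at day 0. Its highest rescaled value was at day 11 (77.6), close to those at day 4 (76.5) and day 18 (75.6). ITGB1 was 6.09 times ITGB8 at day 0 and 1.51 times by day 4. It was 0.868 times ITGB8 at day 18, where the order of these 2 genes was reversed.

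ITGB5, a further partner of the alpha V subunit and a vitronectin receptor chain, was the only other beta subunit over 1 FPKM. It stood at 17.6, 9.87, 10.9, 8.32, 9.77, 4.80 and 7.10 FPKM over the 7 days in order, and was lowest at day 11 rather than day 18. As a share of the summed FPKM of the 8 beta subunits, ITGB1 went from 79.9% at day 0 to 42.6% at day 18 and ITGB8 from 13.1% to 49.1%, with ITGB5 at 6.62% and 7.65%. The sum itself went from 266.1 to 92.8 FPKM.

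The remaining 5 beta subunits were under 1 FPKM on every day. ITGB4, which belongs to the hemidesmosomes of epithelia, was between 0.282 and 0.578 FPKM. ITGB3, best known from platelets and in a record shared with C17orf57, was between 0.249 and 0.632, ITGB7, a leukocyte subunit, did not pass 0.0529, and ITGB6, an epithelial one, did not pass 0.0690. ITGB2, the subunit shared by leukocyte integrins, did not pass 0.00611 and was listed at 0 on some days, as was ITGB6.

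Among the alpha subunits ITGAV, which binds ligands carrying the RGD peptide such as vitronectin, was highest. Over the 7 days it was at 35.0, 18.3, 21.8, 16.6, 17.4, 9.38 and 6.22 FPKM. At day 0 its level was close to that of its partner ITGB8, and at day 18 ITGB8 was 7.33 times ITGAV. Sums of RNA do not show which pairs of subunits formed.

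ITGA5, the main fibronectin receptor subunit, lies at chr12:54789047-54813050 on the minus strand. Its levels ran 19.6, 13.1, 13.9, 8.20, 8.60, 2.32 and 0.772 FPKM. It was 25.4 times lower at day 18 than at day 0 and went from the second highest alpha subunit to under 1 FPKM. ITGAV was 1.79 times ITGA5 at day 0 and 8.05 times at day 18. The other RGD-binding alpha subunits, ITGA2B of platelets and ITGA8 of kidney mesenchyme, did not pass 0.363 FPKM.

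Summed as a class, the laminin-binding alpha subunits ITGA3, ITGA6 and ITGA7 differed less between the ends of the course than the RGD-binding ones. This did not hold for each subunit, as ITGA3 was 5.80 times lower at day 18 and ITGAV 5.63 times. ITGA6, a subunit found on many stem and progenitor cells, was at 16.0, 12.6, 12.1, 12.8, 13.0, 8.21 and 5.26 FPKM, almost level from day 1 to day 5. ITGA7, known mainly from muscle, stayed between 2.79 and 6.33 FPKM, in order 5.60, 4.76, 6.33, 4.71, 5.76, 3.36 and 2.79. ITGA3, a receptor subunit for laminins with the LAMA3 or LAMA5 chain, was less even: 12.9, 5.33, 7.59, 3.34, 5.22, 1.36 and 2.22 FPKM. Its values went down and up in turn at each of the 6 steps.

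Summed, the 3 laminin-binding subunits went from 34.5 to 10.3 FPKM, a ratio of 3.36, and the 4 RGD-binding subunits from 54.7 to 7.25, a ratio of 7.55. The 4 collagen-binding subunits, ITGA1, ITGA2, ITGA10 and ITGA11, were close to the laminin-binding class, with a ratio of 3.84. As a share of the summed alpha subunits the laminin-binding class went from 28.8% through 36.6% on day 5 to 43.4% on day 18, and was higher on each sampled day than on the one before. The RGD-binding class went from 45.6% to 30.7%, and the collagen-binding class from 14.5% to 19.1%. Most of the latter was the record that ITGA1 shares with PELO, at 12.5% and 14.8% of the alpha subunits. ITGA3, of the laminin-binding class, went from 10.8% to 9.41% of the summed alpha subunits. These shares are ratios within a day and do not move with the scaling of the days.

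ITGA1 and ITGA2, alpha subunits of collagen receptors, had unlike courses. ITGA1, whose record also carries PELO, a gene within its span, was at 15.0, 9.07, 9.40, 7.56, 6.90, 3.78 and 3.49 FPKM, so it was lower on each day but day 2. The part of PELO in this record is unknown, so these values are uncertain for ITGA1. ITGA2 was at 1.78, 2.28, 3.11, 3.73, 3.57, 1.68 and 0.809 FPKM. It was highest at day 4 and ended under its day 0 level. With the days rescaled it was highest at day 5 (4.29, against 4.17 at day 4). The collagen-binding ITGA10 and ITGA11 did not pass 0.413 FPKM.

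ITGA4 and ITGA9, which share ligands such as osteopontin and form a branch of their own among alpha subunits, were both lower at the end. ITGA4 was at 9.87, 4.02, 4.11, 3.45, 3.10, 2.80 and 1.23 FPKM. ITGA9 was at 3.45, 2.66, 2.36, 1.49, 1.46, 0.414 and 0.374 FPKM. Both records share exon bases with a record on the other strand that exceeded them on some days, as given below, and their values are uncertain for that reason.

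**Figure D2:**
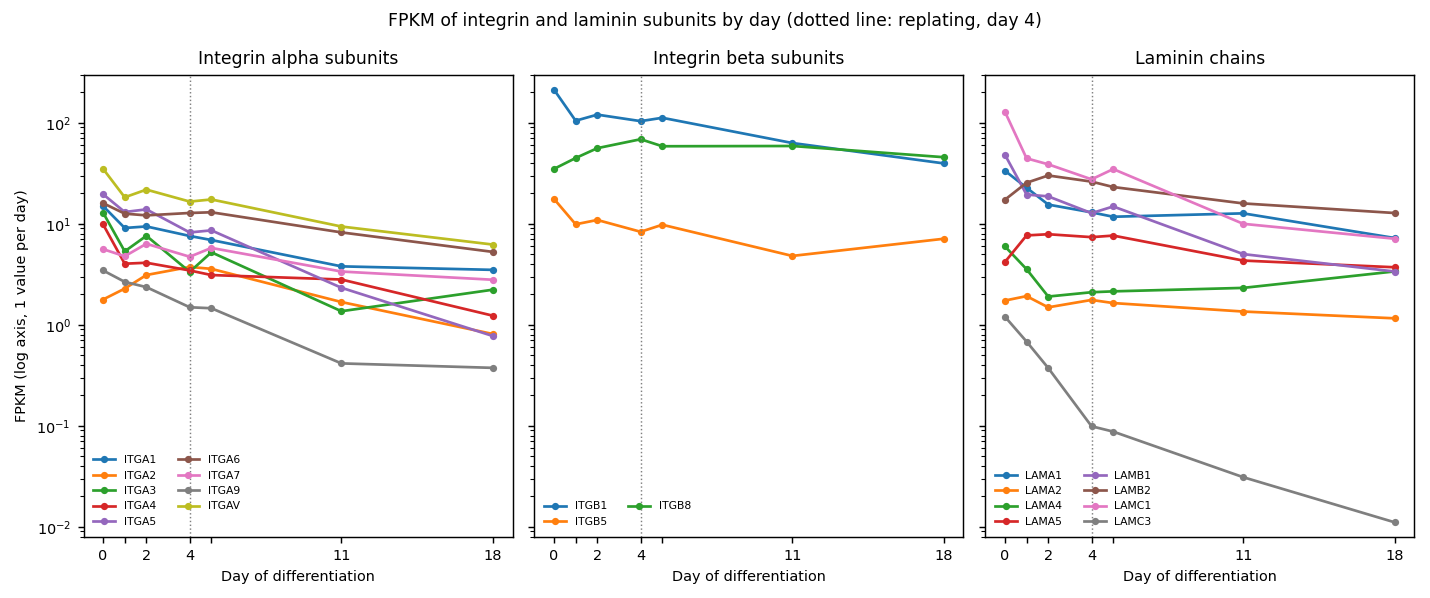
FPKM on a log axis is plotted against the day for the 20 members that reached 1 FPKM on some day, in panels for alpha subunits, beta subunits and laminin chains, with 1 value per day and a dotted line at the replating. ITGB1 and ITGB8 cross after day 11, LAMB1 and LAMB2 cross between days 0 and 1, and LAMC1 goes from 129 to 7.10 FPKM.

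LAMC1, the gamma chain of most laminin trimers, made up 98.5% or more of the summed gamma chains on every day. It lies at chr1:182992595-183114726 on the plus strand. Its 7 values were 129, 44.4, 38.7, 27.5, 34.8, 9.98 and 7.10 FPKM. It was the second highest member at day 0, and its day 1 level was 34.5% of that at day 0.

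LAMB1, the beta chain that forms a trimer with LAMC1 and LAMA1 in the early embryo, had a course close to that of LAMC1. Over the 7 days it was at 48.3, 19.4, 18.7, 12.7, 14.8, 5.00 and 3.36 FPKM. The ratio of LAMC1 to LAMB1 stayed between 1.99 and 2.67 while both levels were over 14-fold apart between day 0 and day 18 (14.4 for LAMB1 and 18.1 for LAMC1).

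LAMB2, the alternative beta chain, known from the basement membranes of kidney, muscle and synapse, was at 17.3, 25.4, 30.0, 26.1, 23.1, 15.9 and 12.8 FPKM. It was higher than on day 0 from day 1 to day 5 and lower at days 11 and 18, but with the days rescaled to the day 0 coding total it was above its day 0 level on both of these days too (20.9 and 21.2). LAMB1 was 2.79 times LAMB2 at day 0 and 0.764 times at day 1, so the order turned within the first day, and it was 0.263 times at day 18. LAMB2 made up 26.3% of the summed beta chains in undifferentiated cells, 56.5% a day later and 78.5% by day 18. LAMB3, a chain of epithelial laminin, and LAMB4 did not pass 0.162 FPKM.

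LAMA1, the alpha chain of the early embryonic trimer, was at 33.5, 22.7, 15.5, 13.0, 11.7, 12.7 and 7.21 FPKM. Its level at day 4 was 38.7% of that at day 0. LAMA5, the alpha chain of most adult basement membranes, was at 4.18, 7.66, 7.87, 7.37, 7.63, 4.32 and 3.71 FPKM. Its day 1 level was 183% of that at day 0, and it was back near the latter from day 11. With the days rescaled to the day 0 coding total it was still above its day 0 level at day 11 (5.69) and day 18 (6.15). LAMA1 was 8.02 times LAMA5 in undifferentiated cells, 1.54 times by day 5, its lowest ratio, 2.93 times on day 11 and 1.95 times on day 18.

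LAMA4, found in vessel walls and nerves, was at 5.97, 3.55, 1.90, 2.10, 2.14, 2.32 and 3.37 FPKM. It was lowest at day 2 and higher at day 18 than at day 11. LAMA2, the chain of muscle and peripheral nerve, stayed between 1.16 and 1.92 FPKM, in order 1.74, 1.92, 1.49, 1.76, 1.64, 1.35 and 1.16. LAMA3, the epithelial chain, did not pass 0.0293. LAMC3, a minor gamma chain of brain and other tissues, was at 1.20, 0.681, 0.373, 0.0988, 0.0875, 0.0309 and 0.0110 FPKM, lower on each day than on the one before. Its ratio between day 0 and day 18 rests on a day 18 value near 0 and is not given.

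Summed by trimer, LAMA1, LAMB1 and LAMC1 went from 210.4 FPKM to 86.6 within a day and to 17.7 by day 18, a ratio of 11.9 between the ends. The other 8 laminin chains went from 30.6 to 39.4 and then to 21.2 FPKM, a ratio of 1.44. At day 18 the sum of the other 8 was thus above that of the 3. The largest part of the sum of the 8 was LAMB2, at 17.3 FPKM on day 0 and 12.8 on day 18, or 21.2 on day 18 with the days rescaled. These sums were not computed on rescaled days, and the coding total itself was lower at day 18.

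**Figure D3:**
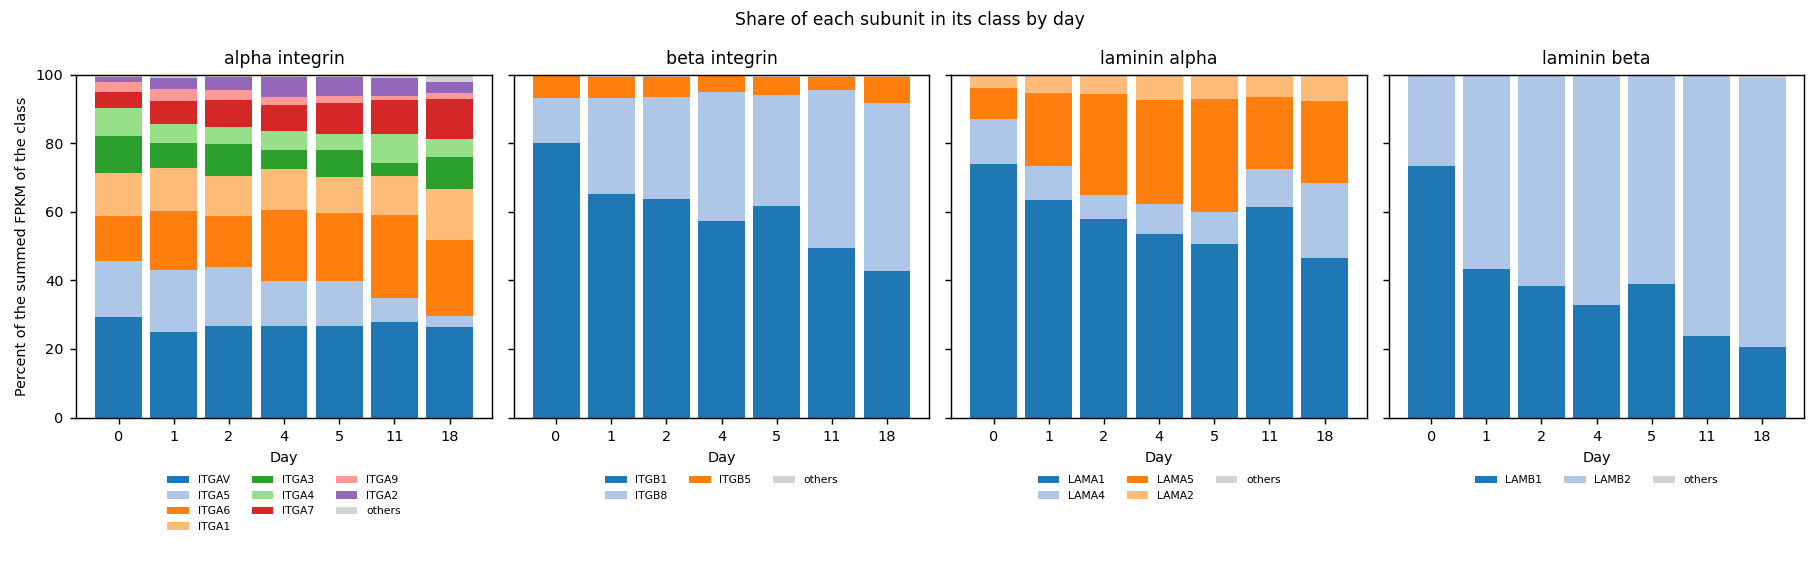
Stacked bars give each member's percent of the summed FPKM of its class on each day, for alpha subunits, beta subunits, laminin alpha chains and laminin beta chains. ITGB8 goes from 13.1% to 49.1% of the beta subunits and LAMB2 from 26.3% to 78.5% of the laminin beta chains, while ITGAV stays between 25.1% and 29.2% of the alpha subunits.

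The promoters of 5 members are shown because their genes mark the extremes of the set: LAMC1, ITGA5 and LAMB1 had the largest differences, and LAMB2 and ITGB8 are the alternative beta chain and beta subunit that took the larger share at day 18. Sequences are from RefSeq on build GRCh38.p14, which differs from hg19 used for the gene positions above, and each window runs 5′ to 3′ on the strand of the gene from 250 bases before the annotated start to 10 bases after it. Capitals mark matches, on either strand, to a GC box (GGGCGG), an AP-1 site (TGANTCA), a TEAD site (GGAATG) or a TATA box (TATAAA). The windows are at chr1:183023170-183023429 on the plus strand, chr7:108003152-108003411 on the minus strand, chr12:54419257-54419516 on the minus strand, chr3:49133041-49133300 on the minus strand and chr7:20330650-20330909 on the plus strand, in the order printed.
LAMC1: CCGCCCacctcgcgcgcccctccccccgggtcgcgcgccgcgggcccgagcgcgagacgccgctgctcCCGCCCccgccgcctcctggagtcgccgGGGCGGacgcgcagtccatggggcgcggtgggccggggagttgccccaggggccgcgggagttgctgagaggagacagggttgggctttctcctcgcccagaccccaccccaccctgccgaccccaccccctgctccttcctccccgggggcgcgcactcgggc
LAMB1: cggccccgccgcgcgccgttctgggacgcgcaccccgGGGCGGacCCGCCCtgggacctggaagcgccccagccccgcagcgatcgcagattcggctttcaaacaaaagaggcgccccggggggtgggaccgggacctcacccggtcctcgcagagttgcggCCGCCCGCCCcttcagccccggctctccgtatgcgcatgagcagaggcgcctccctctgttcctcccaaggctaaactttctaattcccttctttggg
ITGA5: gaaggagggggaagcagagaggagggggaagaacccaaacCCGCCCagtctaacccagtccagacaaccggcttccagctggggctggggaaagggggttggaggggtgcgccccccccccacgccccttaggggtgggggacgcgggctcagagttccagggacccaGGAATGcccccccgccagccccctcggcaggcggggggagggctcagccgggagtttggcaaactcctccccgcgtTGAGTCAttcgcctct
LAMB2: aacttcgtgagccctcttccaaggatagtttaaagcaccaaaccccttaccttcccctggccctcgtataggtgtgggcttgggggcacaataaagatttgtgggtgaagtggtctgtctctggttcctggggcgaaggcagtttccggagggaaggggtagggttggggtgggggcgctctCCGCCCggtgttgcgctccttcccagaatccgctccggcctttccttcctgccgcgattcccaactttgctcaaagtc
ITGB8: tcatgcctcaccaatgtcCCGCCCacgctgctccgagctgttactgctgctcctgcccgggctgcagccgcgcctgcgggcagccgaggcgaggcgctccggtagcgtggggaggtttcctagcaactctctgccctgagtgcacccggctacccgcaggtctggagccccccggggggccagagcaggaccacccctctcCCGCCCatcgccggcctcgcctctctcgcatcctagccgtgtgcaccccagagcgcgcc
LAMC1 had 3 GC boxes and LAMB1 had 4, of which the last pair overlap, and neither window held any of the other motifs. ITGA5 had 1 GC box, 1 TEAD match and 1 AP-1 match that spans the start. LAMB2 had 1 GC box and ITGB8 had 2. The GC content was 79.6% for LAMC1, 69.6% for LAMB1, 69.2% for ITGA5, 58.1% for LAMB2 and 71.5% for ITGB8.

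Across the set 24 of 32 members matched 31 windows. A GC box was in 16 of the 31, beside 43.1% of all 35116 windows of this length, an AP-1 match in 3, beside 6.92%, a TEAD match in 4, beside 12.5%, and a TATA box in 2, beside 10.9%. The AP-1 matches belonged to ITGA5, LAMA3 and LAMB3, and those of TEAD to ITGA5, ITGA10, ITGB1 and LAMA2. These genes include both high and very low members. A match is a description of the letters and not a binding site.

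Step by step, differences of 2-fold or more were found among the members at 2 of the 6 intervals. Between day 0 and day 1, after the change of medium, 14 of the 19 members with a mean of at least 1 FPKM were lower. ITGA3, ITGA4, ITGB1, LAMB1 and LAMC1 were at least 2-fold lower, 5 of 32 beside 1.39% of coding records, and none was 2-fold higher, beside 0.909%. Recentring left 4 of these, without ITGB1, and rescaling to equal coding totals left 2, LAMB1 and LAMC1. No share of coding records was computed for either setting at this step. The 5 that were higher at day 1 were ITGA2, ITGB8, LAMA2, LAMA5 and LAMB2. The median over the 19 was -0.55, against -0.10 over coding records with a mean of at least 1 FPKM.

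In the intervals between days 1, 2 and 4 no member changed by 2-fold in either direction, beside 0.0544% and 0.193% of coding records. ITGA3 came closest, with -0.99 between days 2 and 4. At the replating step, from day 4 to day 5, no member was past 2-fold either, beside 0.0445%. The largest difference was again that of ITGA3, at 0.52, and 11 of the 19 were higher at day 5, or 14 with the days rescaled, LAMC1 by 0.33 before rescaling. This step spans the replating from Matrigel, itself rich in laminin, to a surface coated with poly-D-lysine and laminin. Of the other laminin-binding subunits, ITGA6 differed by 0.02 and ITGA7 by 0.24. The part of the replating in these differences was not tested.

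Between day 5 and day 11, 16 of the 19 members were lower, and ITGA3, ITGA5, LAMB1 and LAMC1 by at least 2-fold. That is 4 of 32, beside 1.39% of coding records, and none was higher, beside 0.672%. The 3 that were not lower were ITGB8 (0.01), LAMA4 (0.08) and LAMA1 (0.10). ITGA3, LAMB1 and LAMC1 were 2-fold lower in both this step and the first, while ITGA5 had -0.55 in the first step and -1.53 in this one. From day 11 to day 18 no member was past 2-fold, beside 1.38% in either direction. ITGB5 (0.48), ITGA3 (0.45) and LAMA4 (0.40) were higher at day 18 than at day 11, as were 9 of the 19 with the days rescaled, and ITGA5 (-0.91) had the largest difference.

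**Figure D4:**
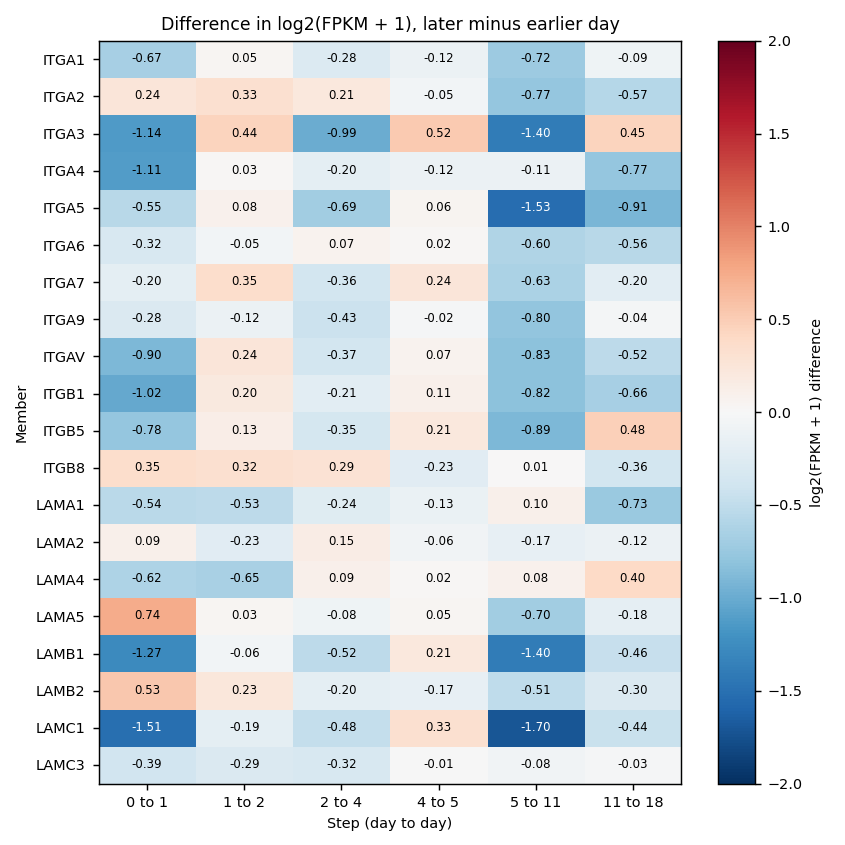
The heat map gives the difference in log2(FPKM + 1), later minus earlier day, for the 20 members that reached 1 FPKM on some day at each of the 6 steps, blue for lower and red for higher. The blue columns are 0 to 1 and 5 to 11, where LAMC1 stands at -1.51 and -1.70.

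Genes whose products work with integrins and laminins were mostly lower at day 18 as well. Of 23 adhesion linkers, which join integrin tails to actin and to signalling, 17 were at least 2-fold lower at day 18 than at day 0 and none higher, beside the 15.1% and 4.12% of coding records given above, with a median of -1.55. With the median of coding records subtracted 13 were lower, beside 10.0% of coding records with a mean of at least 1 FPKM, a class that held 18 of the 23. With equal coding totals 11 were lower, and no share of coding records was computed for that setting. ACTN1, an actin crosslinker, went from 147 to 12.4 FPKM, VCL, which binds talin and actin, from 116 to 17.9, ZYX, found on tensed actin bundles, from 114 to 38.1 and ACTN4 from 90.1 to 24.3.

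Of 14 basement membrane partners and other laminin receptors, 9 were lower and none higher, with a median of -1.85. All 14 had a mean of at least 1 FPKM, a class in which 25.3% of coding records were lower and 5.95% higher. With the median of coding records subtracted 9 were lower, beside 10.0% in that class. With equal coding totals, for which no such share was computed, 8 were lower and 1 higher. COL4A2, a chain of the collagen network beneath laminin, went from 150.4 to 21.3 FPKM, the surface proteoglycan SDC2 from 196 to 21.7 and SPARC, a collagen-binding matrix protein, from 496 to 157. SDC3, the syndecan of neurons, was at 62.1 FPKM on day 0 and 62.8 on day 18. Of 15 other integrin ligands 9 were lower and 1 higher, beside 15.1% and 4.12% of all coding records, with a median of -1.75. SPP1, which encodes osteopontin, went from 253 to 5.96 FPKM and THBS1 from 63.0 to 16.1, while CTGF and CYR61 were higher at day 2 than at day 0 and lower at day 18. The 1 that was higher was EDIL3, a ligand of alpha V integrins, at 2.00 and 21.7 FPKM, named after its value was seen.

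Of 5 tetraspanins, membrane proteins that associate with integrins, 4 were lower, beside 15.1% of all coding records, with a median of -1.30. CD63 went from 356 to 111 FPKM, CD81 from 143 to 57.2 and CD151, the closest partner of laminin-binding integrins, from 76.6 to 26.4. With the median of coding records subtracted, 1 of the 5 was still past 2-fold, beside 10.0% of coding records with a mean of at least 1 FPKM. With equal coding totals 0 were.

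**Figure D5:**
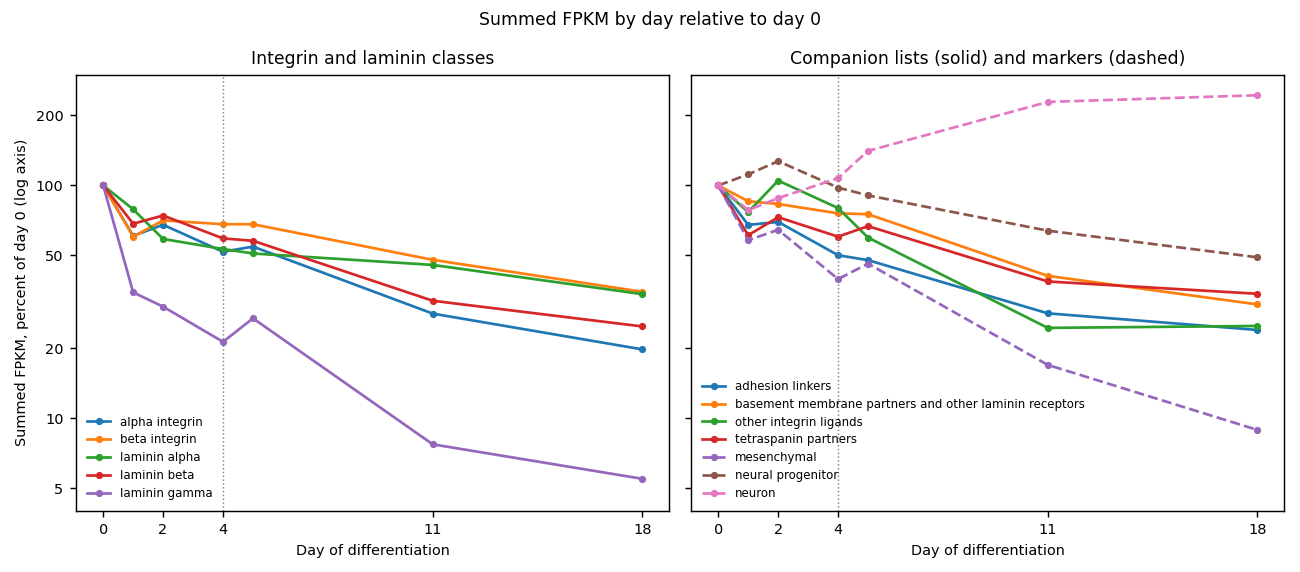
Summed FPKM as a percent of day 0, on a log axis, is plotted against the day for the 5 classes of members (left) and for the lists of companion genes (right, solid) beside marker lists (dashed). At day 18 the laminin gamma chains stand at 5.48% and the alpha subunits at 19.7% of day 0, mesenchymal markers at 8.89%, adhesion linkers at 23.9%, neural progenitor markers at 49.1% and neuron markers at 244%.

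Overlapping transcripts limit some of the values. The paper reports default options for alignment and estimation and names no strand setting, so reads may have been counted without strand. Of the 19 members with a mean of at least 1 FPKM, 13 share over 5% of their exon bases with another record, in most cases a long noncoding RNA on the other strand. For 10 of these the overlapping records summed to at most 15.9% of the member's FPKM on every day. They include ITGB1 (at most 2.59%), LAMC1 (1.24%), ITGA5 (12.4%) and ITGA3 (6.62%), whose exons are covered in large part. How reads on shared exons were divided between records is not known, so a low share does not clear a value. For LAMA5 the share reached 27.2%. The noncoding record opposite ITGA9 was at 4.69 FPKM on day 0 and 1.92 on day 18, above ITGA9 itself, and so was the one opposite ITGB3, at 2.61 and 2.01 FPKM. The record of CERKL and NEUROD1, which overlaps ITGA4, went from 1.55 to 5.93 FPKM and was 4.83 times ITGA4 at day 18.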

How the data were processed

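Polyadenylated RNA of 20 samples was sequenced by the study on an Illumina platform. The authors aligned reads to hg19 with TopHat2, merged assembled transcripts with coding genes and a catalogue of long noncoding RNAs, and estimated FPKM with Cuffdiff2. The deposited FPKM table holds 1 value per record and day, with 0 columns for single cultures. Versions and the strand setting of counting are not given in the sources used here. A second deposited table holds exon coordinates, which were used for positions and overlaps, and the authors' fold changes, statistics, p-values and q-values for adjacent days, which were not used. Groups came from the sample titles.

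Differences were computed with pandas 2.3.3 as log2(FPKM + 1), without a filter, over all 20237 coding records, and the arithmetic was tested on simulated data. A difference of at least 1 was counted. No test, standard deviation or interval was possible. Values on all days were printed for members with a mean or any day of at least 1 FPKM, and the rest by range. In companion and marker lists at most 4 genes were to be named, those with the highest mean. EDIL3, PAX6, COL1A1, AGRN and PDGFRB fall outside that rule and were named after their values were seen. The members and lists were chosen with earlier results of these data known. Alternatives were a pseudocount of 0.1, a fold of 1.5, a mean FPKM of at least 1, recentring, equal coding totals per day and summed records. Motif shares were counted over 35116 RefSeq promoter windows.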

Additional observations from a re-analysis of the deposited data

How the results depend on the processing

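No paired analysis was possible because the files give 1 value per day, although the labels number the cultures alike. For the same reason leaving out each culture in turn and a replicate block were not run. Of 127 values under alternatives, 106 stayed within 1.5 times the first count and 21 did not. Some of the 106 could not move. Summing records left all 16 of its values alike, since no member matched more than 1 record. Many of the step counts were 0 under both settings. The 106 is therefore not a measure of robustness. With a pseudocount of 0.1, the members counted were 1 higher at day 1 (ITGA2B), 2 lower at day 4 against day 2, 7 lower at day 11 against day 5 and 2 lower at the last step, and 2 other ligands were higher. With a fold of 1.5, members counted were 9 lower and 1 higher at day 1 (LAMA5), 1 lower at day 2 (LAMA4), 2 at day 4, 13 at day 11 and 4 at day 18, each against the sampled day before, and 3 other ligands were higher. Recentring on the median gave 3 other ligands higher and 1 tetraspanin lower. Days rescaled to equal coding totals gave 1 member at least 2-fold higher at day 18 (ITGB8), 2 lower at day 1 (LAMB1 and LAMC1), 11 adhesion linkers lower, 1 basement membrane partner higher (AGRN), 3 other ligands higher and 0 tetraspanins lower, and 4 members of mean FPKM at least 1 above their day 0 level (ITGB8, LAMA2, LAMA5 and LAMB2). The looser fold changes counts by its construction, and for the scalings the cause was not tested. Shares of coding records were computed for recentring only at day 18 against day 0, over records with a mean of at least 1 FPKM. None was computed for the pseudocount of 0.1, the fold of 1.5 or equal coding totals, so those counts have no share beside them. The count of 13 members lower at day 18 ran from 10 to 16 over the alternatives. Depth is unknown, so values near 0 cannot be told from counting noise.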
